A study of Mus musculus with 15 samples.

Results

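Transcript levels of 38 genes of sterol and fatty acid synthesis were followed in 15 mouse RNA-seq libraries. The genes are a fixed list of pathway enzymes and regulators under the SREBP transcription factors, matched by symbol to 38 of 54838 Ensembl genes on GRCm38. They are described as a sterol arm of 21 genes (18 enzymes, Srebf2, Insig1 and Stard4) and a fatty acid arm of 17 genes (Srebf1, Mlxipl and 15 genes of precursor supply, synthesis, elongation, desaturation and activation). The 5 groups of 3 libraries each were 4T1 cells in vivo, 4T1 cells in vitro, niche epithelium labelled shSox9, niche epithelium and distal epithelium. 4T1 is a mouse breast cancer line of BALB/c origin, known to form lung metastases. The in vivo cells were recovered from BALB/c lungs 7 days after injection into the tail vein, and the in vitro cells came from dishes of DMEM with fetal bovine serum. The epithelial cells, named EpCAM in the titles after the surface protein of epithelium, were sorted 7 days after 800000 labelling 4T1 cells, which mark neighbouring cells, had been given, so all 3 epithelial groups came from tumour-bearing lungs. Each niche library, with or without the shSox9 label, pooled 5 lungs, and the sources do not say whether distal libraries were pooled in the same way. Which cells received the shSox9 hairpin, and the age of the mice, are not given there either. No label ties the 4T1 replicates to separate dishes or mice, so their p-values reflect only how much these libraries vary, perhaps for technical reasons.

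SREBP proteins are made as membrane precursors in the endoplasmic reticulum. When sterols are scarce, the escort protein Scap carries them to the Golgi apparatus, where proteases release the active factor, and when sterols are plentiful Insig proteins hold the complex back. SREBP-2, the product of Srebf2, is known mainly for genes of cholesterol synthesis, and SREBP-1, the product of Srebf1, for genes of fatty acid synthesis, where the glucose-responsive factor ChREBP, the product of Mlxipl, also acts. In the lung, alveolar type 2 (AT2) cells make surfactant, a mixture rich in saturated phosphatidylcholine, and are known for high fatty acid synthesis.

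Libraries held 15907316 to 30421705 counts. The labels were checked against marker genes, given as CPM (counts scaled to a common library total). The 11 AT2 markers summed to 37411, 51416 and 61836 CPM in niche libraries labelled shSox9, to 15800, 14902 and 11690 CPM in niche libraries, and to 256820, 209343 and 233860 CPM in distal libraries. A panel of 26 genes high in both 4T1 groups and at most 0.5 CPM in distal epithelium stood at 23.9%, 17.1% and 11.03% of its mean level in 4T1 cells in vivo in niche libraries labelled shSox9, at 24.2%, 23.8% and 11.8% in niche libraries, and at 1.24% to 1.55% in distal libraries. The panel was picked on these same libraries, so its low distal level follows from the choice and is no check of that label. A panel gene raised in niche cells themselves would also count towards the carcinoma share. A stricter panel left only 1 gene, which stood at 0.00%, 0.00% and 0.00% in niche libraries labelled shSox9 and at 10.1%, 0.00% and 0.290% in niche libraries, so the carcinoma share is an estimate that depends on the panel. Sox9 stood at 81.4, 58.7 and 35.9 scaled CPM in niche libraries labelled shSox9 and at 59.6, 55.2 and 31.9 in niche libraries. Its log2 fold change of 0.26 (SE 0.27, edgeR adjusted p = 0.548) did not show it lower under the label that names it, and no direction below rests on that label being a loss of Sox9.

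Promoters were available for 31 of the 38 members in RefSeq's set for GRCm38.p6, as windows of 250 bases before to 50 bases after each annotated start. Fads1, Fdft1, Fdps, Scd1, Scd2, Sqle and Stard4 had no entry. Both strands were searched for 2 letter strings like the sterol regulatory element (TCACNCCAC and CACCCCAC, whose matches can overlap), for the E-box CACGTG, and for CCAAT, the box bound by NF-Y, which is known to act with SREBP. CCAAT or its reverse complement ATTGG was present in 16 of 17 sterol members (94.1%) and in 10 of 14 fatty acid members (71.4%), against 41.1% of 27025 genes. CACGTG was found in Dhcr7, Hsd17b7, Insig1, Sc5d, Elovl5 and Mlxipl, against 8.09% of all genes. CACCCCAC was found in 2 of 17 sterol members, Acat2 and Hmgcs1, and in 0 of 14 fatty acid members, against 3.30% of all genes. These are matches of letters, not measured sites. The 2 promoters that held TCACNCCAC, which 1.44% of all genes hold, are shown with the match in capitals: that of Hmgcs1, the synthase that makes the precursor of mevalonate, at chr13:119690189-119690247 on the plus strand, 137 bases before the start, where CACCCCAC overlaps it, and that of Mlxipl at chr5:135106730-135106788 on the plus strand, 136 bases before an alternative start inside the gene. The annotated gene starts at 135089890, and the window there held no TCACNCCAC.
Hmgcs1: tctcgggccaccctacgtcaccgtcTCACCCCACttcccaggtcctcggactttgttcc
Mlxipl: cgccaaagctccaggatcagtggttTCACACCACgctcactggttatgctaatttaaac

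The CCAAT box is shown, in capitals and as read on the gene's strand, for the 4 members of each arm with the largest falls in 4T1 cells in vivo among those with a box before the start. In the sterol arm these are Lss (chr10:76531518-76531572, plus strand, 62 bases before the start), Mvd (chr8:122443423-122443474, minus strand, 27 bases before), Nsdhl (chrX:72918476-72918520, plus strand, 20 bases before) and Sc5d (chr9:42264301-42264349, minus strand, 24 bases before).
Lss: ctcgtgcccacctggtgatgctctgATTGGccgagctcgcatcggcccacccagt
Mvd: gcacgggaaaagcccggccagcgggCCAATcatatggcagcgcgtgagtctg
Nsdhl: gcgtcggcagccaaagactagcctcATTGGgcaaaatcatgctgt
Sc5d: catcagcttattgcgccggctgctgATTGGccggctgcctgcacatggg
In the fatty acid arm they are Fasn (chr11:120824577-120824631, minus strand, 59 bases before the start), Elovl5 (chr9:77917323-77917364, plus strand, 17 bases before), Acsl3 (chr1:78657785-78657824, plus strand, 15 bases before) and Me1 (chr9:86687456-86687510, minus strand, 208 bases before an alternative start inside the gene, which is annotated from 86695953).
Fasn: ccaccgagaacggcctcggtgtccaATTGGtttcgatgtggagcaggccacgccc
Elovl5: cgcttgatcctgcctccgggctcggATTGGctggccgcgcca
Acsl3: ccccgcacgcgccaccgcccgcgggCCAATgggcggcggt
Me1: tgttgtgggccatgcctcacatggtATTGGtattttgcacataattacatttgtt

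The 2 arms were distributed differently over the 5 groups. Levels between groups and genes are given first in TPM, the authors' values scaled for transcript length to the same total in each library. The 18 sterol enzymes summed to 1437 ± 119 TPM in 4T1 cells in vivo, 2862 ± 432 in 4T1 cells in vitro, 1050 ± 86.8 in niche epithelium labelled shSox9, 948 ± 56.2 in niche epithelium and 984 ± 97.1 in distal epithelium (SD, n = 3 each). Cultured 4T1 cells thus held the highest sum, and the libraries of the 3 epithelial groups overlapped. The 15 fatty acid genes other than Srebf1 and Mlxipl summed to 661 ± 62.6 TPM in 4T1 cells in vivo, 1365 ± 142 in vitro, 1917 ± 459 in niche epithelium labelled shSox9, 986 ± 70.9 in niche epithelium and 3069 ± 435 in distal epithelium. Here distal epithelium was highest, and its libraries (2749 to 3565 TPM) lay above all others. Most of the distal sum came from Scd1 (1583 TPM) and Elovl1 (711 TPM), which held 24.5 and 136 TPM in 4T1 cells in vitro. The sum thus mainly follows these genes and not the arm as a whole. Of the 21 sterol members, 20 had their highest mean TPM in 4T1 cells in vitro, the exception being Tm7sf2, a sterol reductase, which was highest in niche epithelium. Of the 17 fatty acid members, 6 were highest in 4T1 cells in vitro (Acaca, Acly, Acsl3, Elovl6, Me1 and Scd2), 3 in niche epithelium labelled shSox9 (Fads1, Fads2 and Srebf1) and 8 in distal epithelium (Acacb, Acsl4, Acss2, Elovl1, Elovl5, Fasn, Mlxipl and Scd1). These ranks are in TPM and depend on that scale. Srebf1 averaged 45.2 TPM under the shSox9 label and 44.0 TPM in distal epithelium, and Me1 22.8 TPM in vitro and 21.3 TPM in distal epithelium. In the edgeR tests of counts both were called lower in those groups than in distal epithelium.

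**Figure D1:**
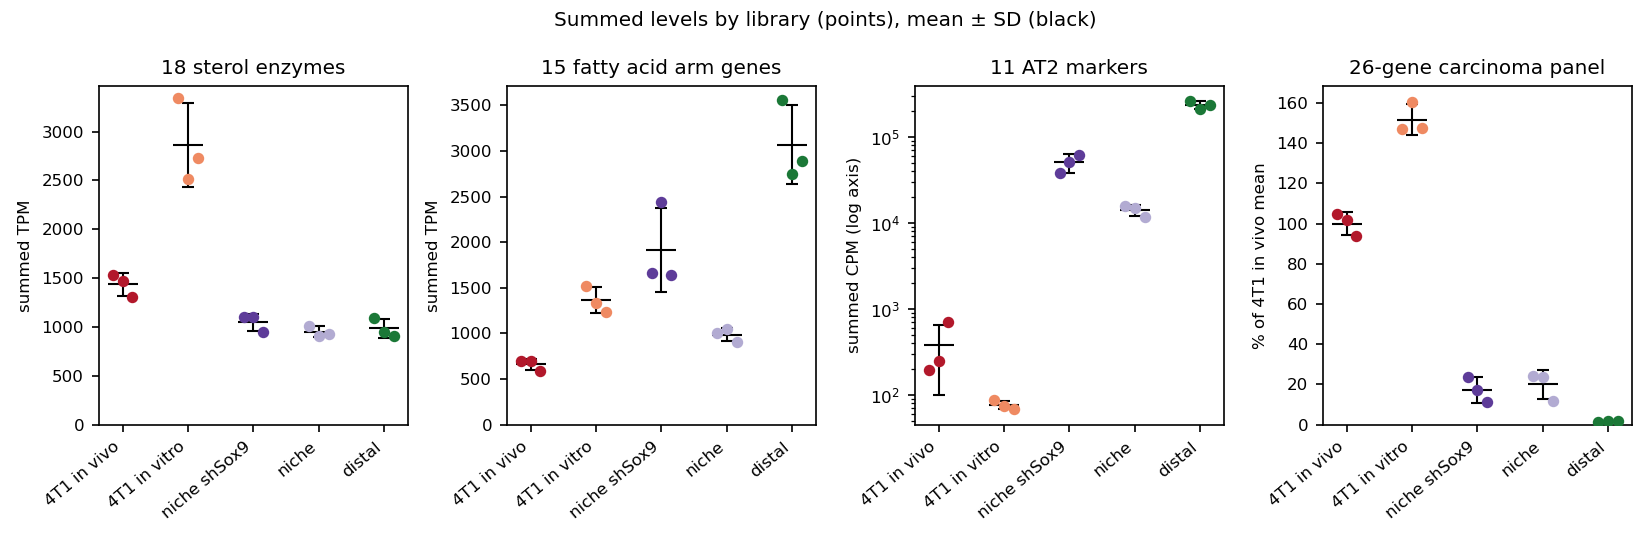
Summed levels in each library (points) with mean ± SD (black) for the 5 groups: TPM of 18 sterol enzymes, TPM of 15 fatty acid genes, CPM of 11 AT2 markers on a log axis, and the 26-gene carcinoma panel in % of its mean in 4T1 cells in vivo. The sterol sum was highest in 4T1 cells in vitro (2862 TPM) and the fatty acid sum in distal epithelium (3069 TPM), where the AT2 markers were also highest. Scd1 (1583 TPM) and Elovl1 (711 TPM) made up most of that fatty acid sum.

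The most abundant sterol transcript in every group was that of Fdps, farnesyl diphosphate synthase at the branch to sterols and prenylated proteins, with 307 ± 13.0 TPM in 4T1 cells in vivo, 674 ± 139 in vitro, 182 ± 17.4 in niche epithelium labelled shSox9, 180 ± 10.1 in niche epithelium and 223 ± 24.3 in distal epithelium. The widest range in the fatty acid arm belonged to Scd1, a stearoyl-CoA desaturase that makes monounsaturated fatty acids. Its mean was 4.86 ± 0.498 TPM in 4T1 cells in vivo, 24.5 ± 4.74 in vitro, 824 ± 335 in niche epithelium labelled shSox9, 229 ± 54.2 in niche epithelium and 1583 ± 303 in distal epithelium. No library of one epithelial group overlapped another for Scd1, and both carcinoma groups lay far below all of them. Among the regulators, Srebf1 ranged over group means of 30.3 to 45.2 TPM and Srebf2 over 53.0 to 96.8 TPM. Mlxipl, by contrast, averaged 0.0567 TPM in 4T1 cells in vivo, 1.78 TPM in niche epithelium labelled shSox9, 0.503 TPM in niche epithelium and 2.89 TPM in distal epithelium, and was listed at 0 in all 3 cultures.

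**Figure D2:**
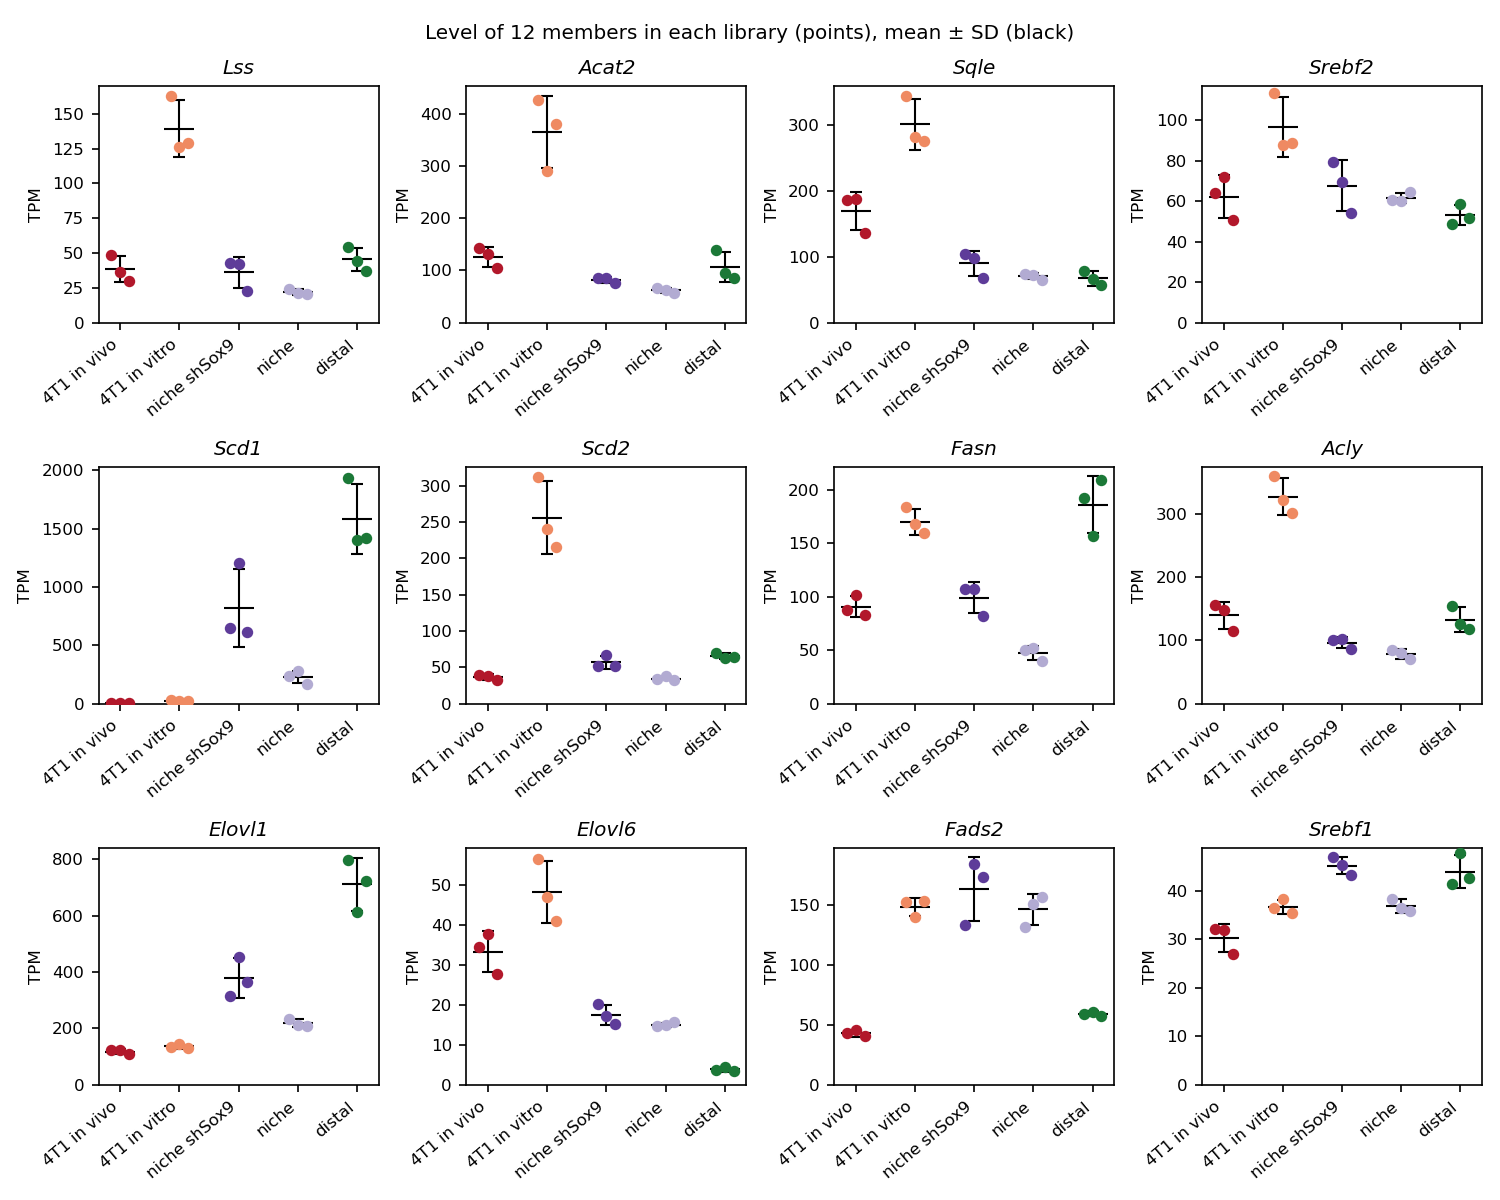
TPM of 12 members in each library (points) with mean ± SD (black), by group. Lss, Acat2, Sqle, Scd2 and Acly were highest in 4T1 cells in vitro, Scd1 and Elovl1 in distal epithelium, and Elovl6 lowest in distal epithelium (3.80 TPM).

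The first comparison asked what changes in carcinoma cells that grow in the lung. The sterol arm was lower almost throughout in 4T1 cells in vivo than in vitro: 19 of 21 members fell, 1 rose (Tm7sf2) and 1 was not called (Pmvk, phosphomevalonate kinase), where called means an edgeR adjusted p below 0.05 over all 14022 genes tested. Over all genes tested, 24% were called lower and 27% higher, 51% in either direction. The median log2 fold change was -0.95 over the arm and 0.01 over all genes. In 20 of 21 members the 2 groups did not overlap, as in 60.7% of all genes.

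The largest fall was that of Lss, lanosterol synthase, which closes the sterol ring. It stood at 79.0, 73.8 and 55.4 scaled CPM (CPM after TMM scaling) in the 3 in vivo libraries, against 281, 202 and 229 in vitro. Every in vivo library was below every culture, with a log2 fold change of -1.77 (SE 0.16, edgeR adjusted p = 2.76e-05). Acat2, the thiolase of the first step, had 200, 181 and 158 scaled CPM in vivo, against 610, 429 and 593 in vitro (log2 fold change -1.60, SE 0.15, adjusted p = 3.26e-05). Mvd, mevalonate diphosphate decarboxylase, had 16.5, 14.7 and 14.9 scaled CPM in vivo, against 47.9, 35.9 and 41.3 in vitro (-1.44, SE 0.13, adjusted p = 2.97e-05). The late sterol enzymes Nsdhl and Sc5d followed. Nsdhl had 44.3, 36.0 and 36.8 scaled CPM in vivo, against 113, 81.2 and 82.8 in vitro (-1.24, SE 0.15, adjusted p = 0.000135). Sc5d had 87.8, 86.6 and 66.0 scaled CPM in vivo, against 198, 184 and 183 in vitro (-1.23, SE 0.12, adjusted p = 3.88e-05).

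The other sterol enzymes that fell ranged from -1.22 for Idi1, isopentenyl diphosphate isomerase, to -0.27 for Ebp, a sterol isomerase. The fall of Ebp (adjusted p = 0.0448) and the rise of Tm7sf2 (0.31, adjusted p = 0.0183) were small. The call of Ebp was lost without 4T1 in vivo replicate 1 or 2 or without 4T1 in vitro replicate 1 or 2 (adjusted p = 0.0962 to 0.124), and that of Tm7sf2 without in vivo replicate 2 or in vitro replicate 2 (adjusted p = 0.0833 and 0.0745).

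The regulators and the sterol carrier of the arm fell as well. Srebf2 had 163, 169 and 132 scaled CPM in vivo, against 299, 243 and 251 in vitro (log2 fold change -0.77, SE 0.12, adjusted p = 0.00062). Insig1, whose transcript is itself induced by SREBP, had 129, 133 and 110 scaled CPM in vivo, against 225, 160 and 184 in vitro (-0.61, SE 0.13, adjusted p = 0.00365). In both genes all in vivo libraries were below all cultures. Stard4, a cytosolic sterol carrier, changed by -0.92 (SE 0.12, adjusted p = 0.000194).

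In the fatty acid arm 13 of the 16 tested members fell in 4T1 cells in vivo and 3 were not called, with a median log2 fold change of -0.71. None rose by edgeR, 0 rose at an unadjusted p below 0.05, and 0 by DESeq2. The desaturases changed most. Scd2 had 139, 132 and 121 scaled CPM in vivo, against 1126, 888 and 844 in vitro, a 7.29-fold lower fitted level (log2 fold change -2.87, SE 0.13, adjusted p = 5.81e-07). Scd1 had 16.4, 15.6 and 14.3 scaled CPM in vivo, against 95.4, 73.6 and 72.7 in vitro (-2.38, SE 0.13, adjusted p = 1.67e-06). The 2 paralogs are near relatives, so their separate levels are uncertain where reads matched both. Fads2, which starts the desaturation of polyunsaturated fatty acids, had 40.3, 42.0 and 40.3 scaled CPM in vivo, against 146, 137 and 159 in vitro (-1.85, SE 0.09, adjusted p = 9.17e-07). For all 3 desaturases the spread within groups was small beside the distance between them.

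Fasn, the synthase that builds palmitate, had 281, 310 and 225 scaled CPM in vivo, against 715, 672 and 655 in vitro (-1.32, SE 0.12, adjusted p = 2.94e-05). Acly, which cleaves citrate to acetyl-CoA, had 428, 397 and 335 scaled CPM in vivo, against 1013, 925 and 918 in vitro (-1.30, SE 0.11, adjusted p = 1.55e-05). Both genes separated the groups without overlap. Acaca, the carboxylase that commits acetyl-CoA to fatty acids, changed by -0.99 (SE 0.11), and the elongases Elovl5, Elovl6 and Elovl1 by -0.79 (SE 0.09), -0.63 (SE 0.11) and -0.27 (SE 0.08). The call of Elovl1 was lost without in vitro replicate 2 (adjusted p = 0.0711). Acsl4, an acyl-CoA synthetase that prefers arachidonate, had a log2 fold change of 0.00 (SE 0.13, adjusted p = 0.991), whereas its paralog Acsl3 changed by -0.58 (SE 0.13, adjusted p = 0.00434). Acacb, a second carboxylase (-0.01, SE 0.24), and Acss2, which makes acetyl-CoA from acetate (-0.28, SE 0.11, adjusted p = 0.0542), were not called.

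Srebf1 had 78.5, 78.9 and 71.0 scaled CPM in vivo, against 96.1, 102 and 90.1 in vitro (-0.33, SE 0.09, adjusted p = 0.0115). The call for Srebf1 was lost in TPM (adjusted p = 0.0674). Mlxipl was not tested in carcinoma cells: it had 0, 1 and 0 counts in vivo, against 0, 0 and 0 in vitro. In vivo libraries held 193, 247 and 701 CPM of the AT2 markers, against 69.7 to 87.2 CPM in vitro, and 23.4, 28.4 and 84.8 CPM of 12 macrophage markers, against 10.4 to 13.3 CPM in vitro. Lyz2 made up much of the AT2 sum in vivo, with a mean of 222 CPM. Abca3 and Etv5 averaged 28.8 and 48.7 CPM in vivo, against 29.8 and 45.3 CPM in vitro. Sftpc averaged 63.8 CPM and Sftpa1 10.3 CPM in vivo, and every other AT2 marker at most 2.01 CPM. With 5% of the mean niche RNA subtracted from the in vivo libraries, 18 sterol and 13 fatty acid members were called lower, and the in vivo counts of Scd1 reached 0. The 5% was a chosen share, not one estimated from the libraries. For scale, Sftpc averaged 63.8 CPM in vivo and 9506 CPM in niche libraries, C1qa 1.60 and 464 CPM, and Lyz2 222 and 2498 CPM. How much of the Scd1 level in vivo came from niche RNA was not tested.

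Neighbouring pathways in 4T1 cells were described from other gene lists. Their counts stand beside 27% of all genes called higher and 24% called lower, 51% in either direction, and many lie near these shares. Of 9 genes of SREBP processing, 1 rose and 3 fell, among them Scap by -0.39 (SE 0.11, adjusted p = 0.0163). Of 8 genes of mevalonate branches that make prenyl groups, ubiquinone and dolichol, 4 fell, led by Icmt, a methyltransferase of prenylated proteins, with -0.70 (SE 0.11, adjusted p = 0.000526). Of 5 tested genes of sterol esters, oxysterols and export, 2 rose and 1 fell. Abcg1, a sterol exporter, stood at 23.7 ± 21.8 scaled CPM in vivo, with an SD close to its mean, and 5.52 ± 0.700 in vitro (2.09, SE 0.56, adjusted p = 0.011). Of 12 tested partners of elongation and long-chain metabolism, 2 rose and 7 fell, with Fads3, a relative of Fads2, at 5.58 ± 1.38 scaled CPM in vivo and 39.0 ± 13.8 in vitro (log2 fold change -2.81, SE 0.27, adjusted p = 4.61e-05). Fatty acid oxidation had 5 higher and 1 lower of 12 tested. Cpt1a, which admits long-chain fatty acids to mitochondria, stood at 39.2 ± 6.24 scaled CPM in vivo and 10.7 ± 2.29 in vitro (1.88, SE 0.18, adjusted p = 3.87e-05). In glycerolipid and phosphatidylcholine synthesis 3 rose and 7 fell of 15, with Pcyt1b, an isoform of the rate-limiting enzyme of phosphatidylcholine synthesis, at -1.04 (SE 0.12, adjusted p = 0.000152). Of 5 tested genes of mitochondrial fatty acid synthesis, 5 were not called.

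**Figure D3:**
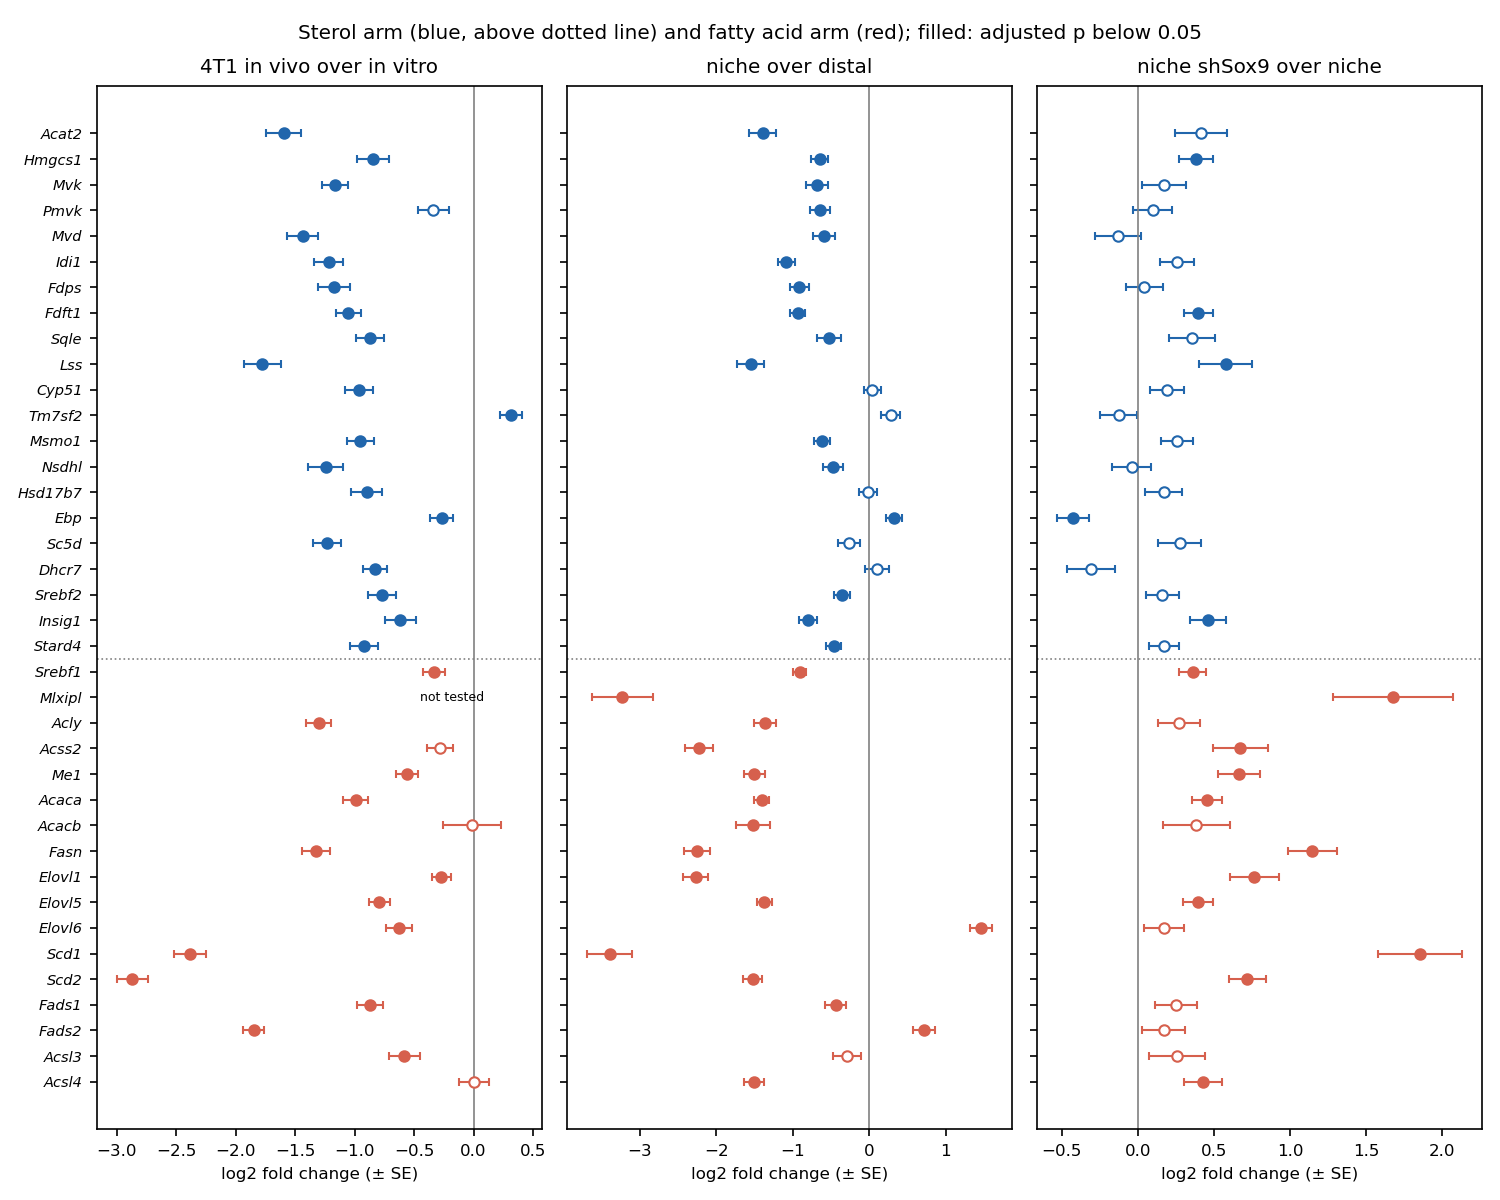
Log2 fold change ± SE of each member in 3 comparisons (edgeR, 3 libraries a group); blue, sterol arm; red, fatty acid arm; filled points, adjusted p below 0.05. Sterol and fatty acid members lay mostly below 0 in 4T1 cells in vivo over in vitro and in niche over distal epithelium, with Elovl6 at 1.46 in niche over distal epithelium, and the fatty acid arm lay above 0 in niche labelled shSox9 over niche epithelium.

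The second comparison set niche against distal epithelium. In counts scaled by TMM, the fatty acid arm was lower in niche epithelium in 14 of 17 members, higher in 2 (Elovl6 and Fads2) and not called in 1 (Acsl3), with a median log2 fold change of -1.50 against 0.02 over all 17640 genes tested. Of all genes, 25.8% were called lower and 28.5% higher, 54.3% in either direction. The sterol arm had 15 of 21 members lower, 1 higher (Ebp) and 5 not called, with a median of -0.59. The 2 groups did not overlap in 16 fatty acid and 17 sterol members, as in 64.3% of all genes. In bulk samples fewer cells of a type and less RNA per cell cannot be told apart here. The AT2 markers given above were lower in every niche library than in any distal library, and their part in these results was not tested.

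The direction of the sterol arm depended on the scale. In TPM (limma, log2(TPM + 1)) the median of all genes moved to 0.48, and 6 sterol members were called higher and 5 lower in niche epithelium, against 1 and 15 in TMM-scaled counts. The split of the fatty acid arm in TPM was 2 higher and 13 lower. Under both scales 17 of 21 sterol members and 15 of 17 fatty acid members lay below the median of all genes.

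Scd1 had 687, 805 and 517 scaled CPM in niche libraries, against 8983, 5820 and 6330 in distal libraries, a 10.5-fold lower fitted level (log2 fold change -3.40, SE 0.29, adjusted p = 3.47e-06). Mlxipl, in low counts, had 0.639, 0.522 and 1.03 scaled CPM in niche libraries, against 7.61, 6.49 and 6.16 in distal libraries (-3.23, SE 0.40, adjusted p = 4.61e-05). No niche library reached the level of a distal library in either gene. Elovl1, which elongates very long-chain saturated fatty acids, had 168, 159 and 162 scaled CPM in niche libraries, against 923, 632 and 810 in distal libraries (-2.27, SE 0.17, adjusted p = 1.06e-06). Fasn had 138, 149 and 111 scaled CPM in niche libraries, against 705, 553 and 636 in distal libraries (-2.25, SE 0.16, adjusted p = 1.07e-06). Acss2 had 15.6, 13.9 and 14.7 scaled CPM in niche libraries, against 92.1, 59.9 and 54.8 in distal libraries (-2.23, SE 0.18, adjusted p = 2.53e-06). These genes span the path from acetate through palmitate to elongated and desaturated products. Acly, Acaca, Acacb, Me1 (malic enzyme, a source of NADPH), Elovl5, Scd2 and Acsl4 lay between -1.52 and -1.36.

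Elovl6 and Fads2 went the other way. Elovl6, which elongates palmitate to stearate, had 25.2, 25.9 and 29.2 scaled CPM in niche libraries, against 10.6, 9.90 and 8.57 in distal libraries (log2 fold change 1.46, SE 0.14, adjusted p = 8.12e-06). Fads2 had 114, 131 and 142 scaled CPM in niche libraries, against 82.5, 75.9 and 76.7 in distal libraries (0.72, SE 0.14, adjusted p = 0.00122). Both genes are also present in 4T1 cells, at 33.3 ± 5.10 and 43.0 ± 2.79 TPM in vivo. With the 26-gene panel's share of the in vivo profile subtracted from the niche libraries, the log2 fold change of Elovl6 was 0.99 (adjusted p = 0.00409) and that of Fads2 was 1.09 (adjusted p = 6.08e-05). In the same fit Scd1 was at -2.91 and Fasn at -2.52, both still called, whereas Fads1, the partner of Fads2 in polyunsaturated desaturation, was no longer called (-0.06, adjusted p = 0.727, against -0.44 and 0.0189 without subtraction). The call of Fads1 was also lost without niche replicate 1 or 2 or distal replicate 1 (adjusted p = 0.0616 to 0.0856).

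In the sterol arm Lss had 45.7, 38.5 and 33.8 scaled CPM in niche libraries, against 148, 99.5 and 98.7 in distal libraries (-1.55, SE 0.18, adjusted p = 2.81e-05). Acat2 had 85.9, 81.2 and 77.5 scaled CPM in niche libraries, against 292, 178 and 173 in distal libraries (-1.39, SE 0.17, adjusted p = 5.04e-05). Lss and Acat2 were thus also the 2 sterol members with the largest falls here, and both were still called lower in TPM. Idi1 had 76.6, 66.4 and 67.7 scaled CPM in niche libraries, against 170, 137 and 141 in distal libraries (-1.09, SE 0.11, adjusted p = 1.2e-05). Fdft1, squalene synthase, had 53.8, 53.7 and 48.8 scaled CPM in niche libraries, against 110, 92.6 and 97.0 in distal libraries (-0.94, SE 0.10, adjusted p = 1.17e-05). Fdps had 138, 125 and 135 scaled CPM in niche libraries, against 290, 207 and 252 in distal libraries (-0.91, SE 0.12, adjusted p = 7.65e-05). The groups did not overlap in any of these 5 genes. The enzymes after lanosterol were divided. Msmo1 (-0.61, SE 0.11, adjusted p = 0.000479) and Nsdhl (-0.47, SE 0.13, adjusted p = 0.00961) were lower in niche epithelium, and the call of Nsdhl was lost without niche replicate 2 (adjusted p = 0.0501). Cyp51, lanosterol demethylase, was at 0.04 (SE 0.11), Hsd17b7 at -0.02 (SE 0.12), Sc5d at -0.27 (SE 0.14) and Dhcr7 at 0.10 (SE 0.16), none of them called. In TPM Cyp51, Sc5d and Dhcr7 were called higher in niche epithelium (0.62, 0.44 and 0.63). The call of Ebp (0.32, SE 0.10, adjusted p = 0.021) was lost without niche replicate 1 or 3 or without distal replicate 2 (adjusted p = 0.0568 to 0.0867).

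Of the regulators, Srebf1 had 82.2, 71.4 and 79.5 scaled CPM in niche libraries, against 152, 149 and 137 in distal libraries (log2 fold change -0.91, SE 0.09, adjusted p = 9.86e-06). Insig1 had 94.0, 80.2 and 83.6 scaled CPM in niche libraries, against 173, 151 and 128 in distal libraries (-0.81, SE 0.12, adjusted p = 0.00016). Srebf2 had 144, 136 and 161 scaled CPM in niche libraries, against 187, 190 and 187 in distal libraries (-0.36, SE 0.11, adjusted p = 0.0159). In TPM Insig1 was not called (-0.19, adjusted p = 0.165). The smaller difference of Srebf2 changed its sign in TPM (0.22, adjusted p = 0.169) and lost its call without niche replicate 1 or 2 (adjusted p = 0.0542 and 0.0759). The call of Sqle, squalene epoxidase (-0.53, SE 0.15, adjusted p = 0.0119), was lost without distal replicate 1 (adjusted p = 0.0588), and in TPM it stood at 0.08 (adjusted p = 0.706).

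Other cell markers moved with the niche as well. The 7 fibroblast markers summed to 12734, 14261 and 12973 CPM in niche libraries, against 2935 to 3632 CPM in distal libraries. Collagens made up most of the sum, with Col1a1 at 6723 and 1094 CPM and Col3a1 at 3844 and 879 CPM. Col1a2, Pdgfra and Lum were also higher in niche libraries. Dcn (258.5 and 284.2 CPM) and Tcf21 (30.9 and 52.7 CPM) were lower there. The 6 markers of lipofibroblasts and adipocytes summed to 86.2 to 155 CPM in niche libraries, against 38.5 to 54.4 CPM in distal libraries, with Adipoq at 0 in both groups. Lpl made up most of this sum, with 108 CPM in niche and 40.2 CPM in distal libraries. Cidec and Fabp4 were also higher in niche libraries, whereas Plin1 (0.289 and 0.325 CPM) and Plin4 (0.459 and 3.44 CPM) were lower. Markers of lung epithelial types other than AT2 cells were lower in niche libraries. The 7 alveolar type 1 markers summed to 298 to 388 CPM there, against 3374 to 3924 CPM in distal libraries. The 4 club cell markers summed to 82.1 to 121 CPM in niche libraries, against 745 to 1789 CPM in distal libraries. The 5 ciliated cell markers summed to 26.2 to 34.1 CPM in niche libraries, against 207 to 248 CPM in distal libraries. The 5 epithelial markers, several of which 4T1 cells share, summed to 702 to 1578 CPM in niche libraries, against 917 to 1032 CPM in distal libraries. Of these, Epcam averaged 58.0 CPM in niche and 84.0 CPM in distal libraries, and Cdh1 72.7 and 240.5 CPM. Krt8 (389 and 206 CPM) and Krt18 (588 and 292 CPM) were higher in niche libraries, and Krt7 was near level (143.5 and 142.1 CPM). Of the 12 macrophage markers, Lyz1, which AT2 cells also express in mice, averaged 230 CPM in niche libraries and 5518 CPM in distal libraries, and the other 11 were higher in niche libraries. C1qa averaged 464 CPM in niche libraries and 34.2 CPM in distal libraries, Csf1r 304 and 36.5 CPM, and Mrc1 163 and 9.38 CPM. The part of these cells in the result, and in the levels of Abcg1 and Ch25h given next, was not tested.

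The other lists are set beside 28.5% of all genes called higher and 25.8% called lower, 54.3% in either direction, and many lie near these shares. Among them, sterol esters, oxysterols and export had 4 members higher and 2 lower of 10. Abcg1, a sterol exporter induced by oxysterol receptors, stood at 307 ± 107 scaled CPM in niche libraries and 36.9 ± 6.98 in distal libraries (log2 fold change 3.06, SE 0.35, adjusted p = 2.53e-05). Ch25h, which makes an oxysterol known to hold SREBP inactive, stood at 83.8 ± 16.6 scaled CPM in niche libraries and 12.6 ± 0.709 in distal libraries (2.73, SE 0.15, adjusted p = 1.81e-07). Phospholipid synthesis had 2 higher and 10 lower of 15. Lpcat1, which remodels surfactant phosphatidylcholine, stood at 70.0 ± 8.89 scaled CPM in niche libraries and 851 ± 87.5 in distal libraries (-3.60, SE 0.17, adjusted p = 9.08e-08). Thrsp, a lipogenic protein of the elongation and long-chain list, of which 3 rose and 7 fell of 14 tested, was at -5.44 (SE 0.36, adjusted p = 5.71e-07). Of 9 SREBP processing genes 4 rose, by at most 0.49 for Erlin2, and of 8 genes of mevalonate branches 2 rose, led by Pdss1, of ubiquinone synthesis, with 1.48 (SE 0.19). Fatty acid oxidation had 3 higher and 7 lower of 14, with Ppara, a receptor that induces it, at -2.41 (SE 0.32, adjusted p = 8.64e-05), and mitochondrial fatty acid synthesis had 1 higher of 5.

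The third comparison set niche libraries labelled shSox9 against niche libraries. The fatty acid arm was higher under the shSox9 label in 11 of 17 members and not called in 6, with a median log2 fold change of 0.43 against 0.02 over all genes. By edgeR 0 were lower, likewise 0 at an unadjusted p below 0.05 and 0 by DESeq2. Of all 17640 genes, 9.68% were called higher and 10.8% lower, 20.5% in either direction. The sterol arm had 4 members higher, 1 lower and 16 not called, with a median of 0.17. The groups did not overlap in 12 members of each arm, as in 37.9% of all genes. The scale moved these medians little: in TPM they were 0.37 and 0.20, with 0.00 over all genes.

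Scd1 had 1835, 3490 and 1937 scaled CPM in libraries labelled shSox9, against 687, 805 and 517 in niche libraries, a 3.61-fold higher fitted level (log2 fold change 1.85, SE 0.28, adjusted p = 0.000973). Replicate 2 of the shSox9 label was well above its group for Scd1, and all 3 libraries were above every niche library. Mlxipl had 3.16, 1.26 and 2.50 scaled CPM in libraries labelled shSox9, against 0.639, 0.522 and 1.03 in niche libraries (1.68, SE 0.40, adjusted p = 0.0123). Its call was lost without niche replicate 1 or 2 (adjusted p = 0.0525 and 0.054). Fasn had 296, 346 and 238 scaled CPM in libraries labelled shSox9, against 138, 149 and 111 in niche libraries (1.15, SE 0.16, adjusted p = 0.000668). Elovl1 had 223, 323 and 287 scaled CPM in libraries labelled shSox9, against 168, 159 and 162 in niche libraries (0.77, SE 0.16, adjusted p = 0.00642). Scd2 had 167, 216 and 183 scaled CPM in libraries labelled shSox9, against 111, 123 and 111 in niche libraries (0.72, SE 0.12, adjusted p = 0.00204). The groups were apart in each of these genes.

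Acss2 and Me1 were higher by 0.67 each (SE 0.18 and 0.14), Acaca by 0.46 (SE 0.10), Acsl4 by 0.43 (SE 0.13) and Elovl5 by 0.39 (SE 0.10). Acss2 and Acsl4 lost their calls without any of several single libraries, Acss2 without shSox9 replicate 3 or any niche replicate (adjusted p = 0.0528 to 0.0809) and Acsl4 without any shSox9 replicate or without niche replicate 1 or 3 (adjusted p = 0.0509 to 0.11). Elovl5 lost its call without shSox9 replicate 2 or niche replicate 3 (adjusted p = 0.0671 and 0.0618). In TPM Acaca, Elovl5, Srebf1 and Lss were not called (adjusted p = 0.194, 0.104, 0.06 and 0.0763). Elovl6 (0.17, SE 0.13, adjusted p = 0.404) and Fads2 (0.17, SE 0.14, adjusted p = 0.429), the pair that was higher in niche than in distal epithelium, were not called here.

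Srebf1 had 97.6, 97.5 and 104 scaled CPM in libraries labelled shSox9, against 82.2, 71.4 and 79.5 in niche libraries (0.36, SE 0.09, adjusted p = 0.0159). Its call was lost without shSox9 replicate 3 or niche replicate 2 (adjusted p = 0.0591 and 0.0809). Srebf2 had 181, 169 and 142 scaled CPM in libraries labelled shSox9, against 144, 136 and 161 in niche libraries, and the groups overlapped (0.16, SE 0.11, adjusted p = 0.327).

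In the sterol arm Lss had 65.6, 60.9 and 49.8 scaled CPM in libraries labelled shSox9, against 45.7, 38.5 and 33.8 in niche libraries (0.58, SE 0.18, adjusted p = 0.0386). Insig1 had 112, 120 and 125 scaled CPM in libraries labelled shSox9, against 94.0, 80.2 and 83.6 in niche libraries (0.46, SE 0.12, adjusted p = 0.017). Ebp, the only sterol member called lower, had 44.7, 50.1 and 52.1 scaled CPM in libraries labelled shSox9, against 66.2, 60.3 and 70.6 in niche libraries (-0.42, SE 0.10, adjusted p = 0.0149). None of these 3 genes overlapped between the groups. Fdft1 had 67.0, 72.6 and 66.3 scaled CPM in libraries labelled shSox9, against 53.8, 53.7 and 48.8 in niche libraries (0.40, SE 0.09, adjusted p = 0.0129). Hmgcs1 had 170, 183 and 161 scaled CPM in libraries labelled shSox9, against 133, 121 and 140 in niche libraries (0.38, SE 0.11, adjusted p = 0.0332). Each of these 5 calls was lost when single libraries were left out, and 0 to 4 sterol members were then called higher: 0 without shSox9 replicate 2, 1 without niche replicate 2 or 3, and 2 without shSox9 replicate 3. Lss lost its call without shSox9 replicate 1 or 2 or niche replicate 2 or 3 (adjusted p = 0.0826 to 0.122), Insig1 without shSox9 replicate 2 or 3 or niche replicate 2 or 3 (0.0523 to 0.0762), Hmgcs1 without shSox9 replicate 2 or 3 or niche replicate 1 or 2 (0.0517 to 0.132), Fdft1 without shSox9 replicate 2 or niche replicate 3 (0.0575 and 0.0501) and Ebp without niche replicate 1 or 3 (0.0557 and 0.0546).

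AT2 markers were higher in libraries labelled shSox9 than in niche libraries, as given above, and C1qa, a macrophage gene, averaged 64.9 CPM in libraries labelled shSox9 and 464 CPM in niche libraries. The 12 macrophage markers together summed to 1293 to 1718 CPM in libraries labelled shSox9 and 3139 to 3566 CPM in niche libraries, but Lyz1 made up much of the sum under the shSox9 label, with 1060 CPM there and 230 CPM in niche libraries. The other 11 were each lower in libraries labelled shSox9. Their part in the result was not tested. The 26-gene carcinoma panel covered like ranges in both groups, 11.03% to 23.9% and 11.8% to 24.2%. With its share subtracted, 11 fatty acid members were still called higher and 7 sterol members were.

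Counts in the neighbouring lists are set beside 9.68% of all genes called higher and 10.8% called lower, 20.5% in either direction. In these lists, Lpcat1 stood at 190 ± 39.1 scaled CPM in libraries labelled shSox9 and 70.0 ± 8.89 in niche libraries (log2 fold change 1.44, SE 0.16, adjusted p = 0.000219) and was the only one of 15 genes of phospholipid synthesis called. Of 14 tested genes of the elongation and long-chain list 2 rose and 2 fell, with Thrsp at 1.35 ± 0.238 and 0.320 ± 0.179 scaled CPM (2.12, SE 0.38, adjusted p = 0.00286). Among 10 genes of sterol esters, oxysterols and export 2 fell. Abcg1 stood at 33.6 ± 17.5 scaled CPM in libraries labelled shSox9 and 307 ± 107 in niche libraries (-3.19, SE 0.35, adjusted p = 0.000191), and Ch25h at 38.9 ± 4.21 and 83.8 ± 16.6 scaled CPM (-1.10, SE 0.14, adjusted p = 0.000424). SREBP processing had 1 of 9 called, Mbtps1, a protease that cuts SREBP, with 0.45 (SE 0.10, adjusted p = 0.00941). Mevalonate branches had 1 lower of 8, Nus1 of dolichol synthesis, with -0.43 (SE 0.10), fatty acid oxidation had 1 higher of 14, Hadh, with 0.40 (SE 0.10), and 5 of 5 tested genes of mitochondrial fatty acid synthesis were not called.

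Set against distal epithelium, which also served as the control of the niche libraries, libraries labelled shSox9 had 13 fatty acid members lower, 2 higher and 2 not called (median log2 fold change -0.98), where 22% of all genes were called lower and 21.7% higher, 43.8% in either direction. The sterol arm had 12 lower and 9 not called (median -0.34). The groups did not overlap in 15 members of each arm, as in 52.8% of all genes. By edgeR 0 sterol members were higher, likewise 0 at an unadjusted p below 0.05 and 0 by DESeq2. In TPM the median of all genes moved to 0.44, with 8 sterol members higher and 1 lower and 8 fatty acid members lower. Side by side, the log2 fold changes over distal epithelium were -1.54 (SE 0.27) in libraries labelled shSox9 and -3.40 (SE 0.29) in niche libraries for Scd1, -1.11 (SE 0.16) and -2.25 (SE 0.16) for Fasn, -1.51 (SE 0.16) and -2.27 (SE 0.17) for Elovl1, -1.55 (SE 0.36) and -3.23 (SE 0.40) for Mlxipl, and -1.55 (SE 0.18) and -2.23 (SE 0.18) for Acss2. These values share the 3 distal libraries.

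Elovl6 had 34.7, 28.2 and 27.5 scaled CPM in libraries labelled shSox9, against 10.6, 9.90 and 8.57 in distal libraries (log2 fold change 1.63, SE 0.14, adjusted p = 6.77e-06), and Fads2 was also higher (0.89, SE 0.14, adjusted p = 0.000421). The 5 largest falls in the sterol arm over distal epithelium were those of Acat2 (-0.98, SE 0.17), Lss (-0.97, SE 0.18), Fdps (-0.87, SE 0.12), Idi1 (-0.83, SE 0.11) and Mvd (-0.72, SE 0.15). Mvd had 15.7, 17.8 and 17.5 scaled CPM in libraries labelled shSox9, against 34.0, 24.0 and 26.2 in distal libraries. The groups did not overlap in any of these 5 genes. In TPM none of these 5 except Fdps was called, with adjusted p = 0.0798 for Acat2 and 0.177 for Lss.

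Cultured carcinoma cells were also set against distal epithelium. The sterol arm was higher in 4T1 cells in vitro in 18 of 21 members and not called in 3. By edgeR 0 were lower, with 0 at an unadjusted p below 0.05 and 0 by DESeq2. The fatty acid arm was split, with 5 members higher, 10 lower and 2 not called. Of all 16738 genes tested, 34.7% were called higher and 47.8% lower, 82.6% in either direction, with a median log2 fold change of -0.33, against 0.86 for the sterol and -0.43 for the fatty acid arm. The groups did not overlap in 17 sterol and 15 fatty acid members, as in 84.9% of all genes. Scaling was done for this pair alone, so scaled CPM differ slightly from those above.

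Sqle, which makes squalene epoxide, had 543, 467 and 480 scaled CPM in 4T1 cells in vitro, against 194, 147 and 137 in distal libraries (log2 fold change 1.64, SE 0.14, adjusted p = 9.94e-07). Cyp51 had 201, 168 and 151 scaled CPM in 4T1 cells in vitro, against 65.8, 52.0 and 58.9 in distal libraries (1.56, SE 0.14, adjusted p = 8.81e-07). Hsd17b7 had 61.0, 56.3 and 49.8 scaled CPM in 4T1 cells in vitro, against 23.0, 23.6 and 19.4 in distal libraries (1.34, SE 0.13, adjusted p = 1.98e-06). All 3 genes act after squalene synthase, and their groups lay well apart. Msmo1, a sterol methyl oxidase, had 365, 288 and 350 scaled CPM in 4T1 cells in vitro, against 151, 126 and 123 in distal libraries (1.33, SE 0.13, adjusted p = 2.52e-06). Acat2 had 534, 388 and 530 scaled CPM in 4T1 cells in vitro, against 274, 170 and 164 in distal libraries (1.25, SE 0.20, adjusted p = 0.000139). Srebf2 was higher by 0.40 (SE 0.11, adjusted p = 0.00484), with 262, 220 and 224 scaled CPM in 4T1 cells in vitro, against 176, 182 and 177 in distal libraries. Insig1 had 197, 145 and 164 scaled CPM in 4T1 cells in vitro, against 162, 144 and 121 in distal libraries, and was not called (0.24, SE 0.14, adjusted p = 0.138). The small rise of Hmgcs1 (0.33, adjusted p = 0.0457) was lost without in vitro replicate 1 or distal replicate 2 or 3 (adjusted p = 0.161 to 0.188), and that of Mvd (0.48, adjusted p = 0.0132) without distal replicate 2 or 3 (0.0864 and 0.0617).

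In the fatty acid arm the more abundant paralog by TPM differed between the 2 cell types for Scd1 with Scd2 and for Fads1 with Fads2. Elovl5, Acsl4 and Acaca led over Elovl6, Acsl3 and Acacb in both cell types, by different shares. Scd1 had 83.5, 66.6 and 64.9 scaled CPM in 4T1 cells in vitro, against 8450, 5570 and 6010 in distal libraries, a 93.2-fold lower fitted level (log2 fold change -6.54, SE 0.23, adjusted p = 7.34e-10). Scd2 went the other way, with 986, 802 and 753 scaled CPM in 4T1 cells in vitro, against 348, 281 and 307 in distal libraries (1.44, SE 0.14, adjusted p = 1.9e-06). Elovl6 had 99.2, 83.9 and 79.1 scaled CPM in 4T1 cells in vitro, against 10.0, 9.47 and 8.13 in distal libraries, 9.47-fold higher (3.24, SE 0.14, adjusted p = 3.42e-09). The groups were far apart in all 3 genes. Elovl1 had 98.0, 111 and 106 scaled CPM in 4T1 cells in vitro, against 868, 605 and 769 in distal libraries (-2.83, SE 0.15, adjusted p = 1.44e-08). Acacb had 2.90, 3.92 and 3.47 scaled CPM in 4T1 cells in vitro, against 15.1, 12.2 and 12.6 in distal libraries (-1.95, SE 0.20, adjusted p = 3.5e-06), a call lost in TPM (-0.45, adjusted p = 0.0944). Acsl3 was higher by 1.68 (SE 0.15) and Acsl4 lower, with -1.20 (SE 0.15). Fads2 was higher by 0.82 (SE 0.10) and Fads1 lower, with -1.64 (SE 0.13). Fasn did not differ beyond its error (0.02, SE 0.12, adjusted p = 0.893).

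Mlxipl had 0, 0 and 0 counts in 4T1 cells in vitro, against 123, 95 and 87 in distal libraries. That is at least 148-fold lower in 4T1 cells, taking 3 counts in the 3 cultures together as the floor, and the median of the arm is the same with Mlxipl at that bound. Srebf1 had 84.1, 91.8 and 80.4 scaled CPM in 4T1 cells in vitro, against 143, 143 and 130 in distal libraries (-0.70, SE 0.10, adjusted p = 6.46e-05).

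The share of Scd1 in the summed TPM of Scd1 and Scd2 was 11.8% ± 0.0450 in 4T1 cells in vivo and 8.73% ± 0.152 in vitro, and 93.2% ± 1.39 in niche epithelium labelled shSox9, 86.6% ± 2.19 in niche epithelium and 96.0% ± 0.455 in distal epithelium (SD, n = 3 each). Every 4T1 library held mostly Scd2 and every epithelial library mostly Scd1. Elovl6 took 47.1% ± 2.998 of Elovl6 and Elovl5 in 4T1 cells in vivo, 44.4% ± 1.68 in vitro, 27.3% ± 2.15 in niche epithelium labelled shSox9, 29.8% ± 3.89 in niche epithelium and 5.62% ± 0.281 in distal epithelium. Fads1 took 31.3% ± 1.11 of Fads1 and Fads2 in 4T1 cells in vivo, 18.9% ± 2.57 in vitro, 37.9% ± 2.08 in niche epithelium labelled shSox9, 36.3% ± 1.03 in niche epithelium and 55.9% ± 2.01 in distal epithelium. For both pairs the shares of the 2 niche groups overlapped each other and lay between those of distal epithelium and the 4T1 groups. This holds for the shares, not for all levels. Mean Fads1 was 83.9 TPM in niche epithelium and 99.4 TPM under the shSox9 label, against 75.6 TPM in distal epithelium, 19.7 TPM in 4T1 cells in vivo and 34.7 TPM in vitro. Acsl4 took 74.6% to 95.0% of Acsl3 and Acsl4 as group means, lowest in 4T1 cells in vitro and highest in distal epithelium.

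**Figure D4:**
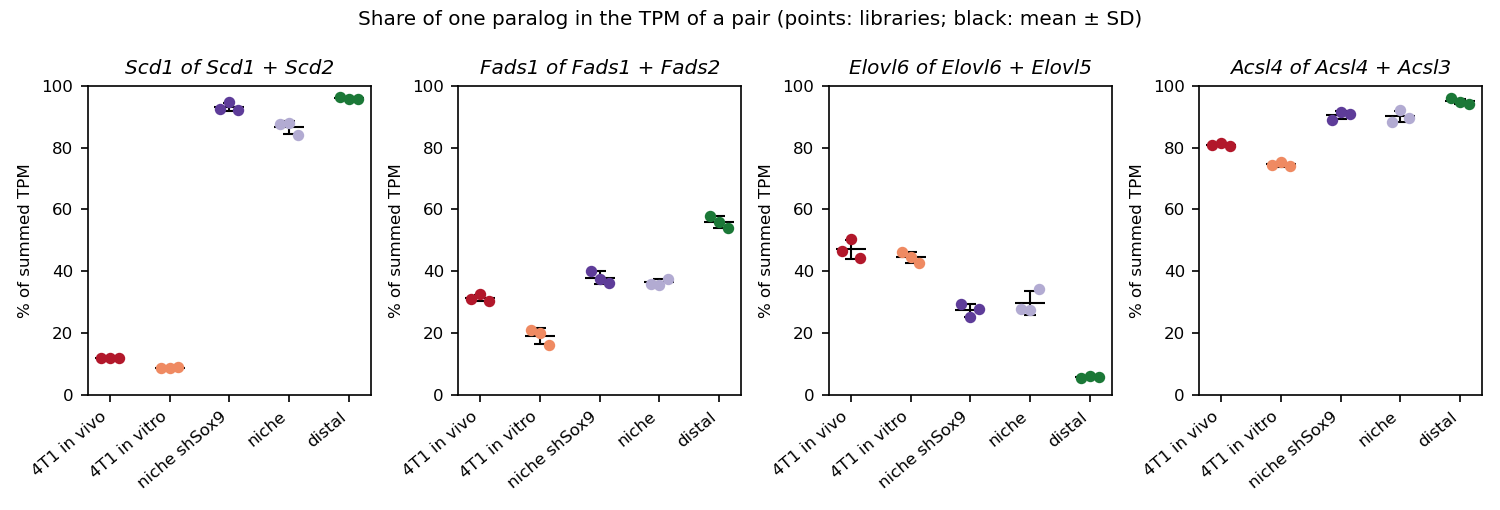
Share of one paralog in the summed TPM of a pair, in % (points: libraries; black: mean ± SD), for Scd1 with Scd2, Fads1 with Fads2, Elovl6 with Elovl5 and Acsl4 with Acsl3. The Scd1 share was 8.73% to 11.8% in 4T1 groups and 86.6% to 96.0% in epithelial groups, and the Elovl6 share was lowest in distal epithelium (5.62%).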

How the data were processed

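Bulk RNA was sequenced (75-base reads) in 15 libraries. The authors deposited 1 table per library from RSEM, which per the submitters' processing notes was used with DESeq2 on GRCm38, without versions. The expected counts deposited by the authors, estimated per gene, were rounded to whole numbers and tested. The deposited TPM values served for levels and as an alternative scale. Gene IDs were matched to GENCODE symbols for 54809 of 54838 genes.

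edgeR 4.0.16 (R 4.3.3) was run with TMM scaling, filterByExpr and the quasi-likelihood test, and p-values were adjusted by Benjamini and Hochberg across the whole table, calling genes below 0.05. The 4T1 comparison was fitted on its 6 libraries, the epithelial comparisons on 9, and 4T1 in vitro against distal on 6. SE is the absolute log2 fold change over the root of F. TMM takes most genes as unchanged, whereas TPM fixes each library's total, so a rise in abundant transcripts lowers the TPM of others. The part of surfactant transcripts in the differences between these scales was not tested. Alternatives were DESeq2 1.42.0, RLE factors, no filter, limma 3.58.1 on log2(TPM + 1) and log2(TPM + 0.1), a replicate block, fewer libraries, leaving out each library, and subtraction of carcinoma or niche RNA. The wider carcinoma panel (at least 10 CPM in 4T1 libraries, at most 0.5 CPM in distal ones) was chosen after seeing the data. Depth was 15907316 to 30421705 counts, and floors of 3 counts cover counting error only. The fits were tested on simulated data, with the same mean profile in all groups apart from the genes changed on purpose, and the same spread for all genes. Such data cannot show how the fits behave where TMM and TPM differ, as they do here.

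The members and lists were chosen with earlier results of these data known. Regulators and up to 5 called members per arm with the largest change in each comparison are given per library, and other lists by counts with at most 3 examples.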

Additional observations from a re-analysis of the deposited data

How the results depend on the processing

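DESeq2 and RLE factors left every count of members called within 1.5 times. TPM moved the counts most: in niche over distal epithelium 6 sterol members were higher and 5 lower under both pseudocounts, and in niche labelled shSox9 over distal epithelium 8 and 7 sterol members were higher, 1 and 1 lower, and 8 and 7 fatty acid members lower with pseudocounts 1 and 0.1. The sterol member higher in 4T1 cells in vivo was lost (0) without the low-count filter and in TPM, and that in niche over distal was lost (0) with only the 6 libraries. With the wider panel subtracted, 2 sterol members were higher in niche over distal and 7 in shSox9 over niche.

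Sign changes are listed first for the regulators and for members called by edgeR in the comparison named. Among these, signs turned in TPM (pseudocount 1, then 0.1) in niche over distal for Mvd (0.008, 0.0085), Sqle (0.0757, 0.0768), Msmo1 (0.012, 0.0122), Nsdhl (0.108, 0.112), Srebf2 (0.219, 0.222), Stard4 (0.417, 0.44) and Fads1 (0.147, 0.148). They turned in shSox9 over distal for Mvk (0.0527, 0.0548), Pmvk (8e-04, 8e-04), Fdft1 (0.0264, 0.0267), Msmo1 (0.213, 0.215), Nsdhl (0.0671, 0.0695), Srebf2 (0.333, 0.338), Insig1 (0.272, 0.276), Stard4 (0.383, 0.404) and Srebf1 (0.0399, 0.0407), and in 4T1 in vitro over distal for Me1 (0.098, 0.102). Over the comparisons, members were not called by edgeR in 48 cases. There 69 of 697 values under the alternatives changed sign, and 15 of these were called. Examples by limma on log2(TPM + 1) were Sc5d in niche over distal (0.44, adjusted p = 0.0121) and Ebp in shSox9 over distal (0.57, adjusted p = 0.000432). In 4T1 in vitro over distal they were Pmvk (0.41, adjusted p = 0.02) and Tm7sf2 (0.45, adjusted p = 0.0146).

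Leaving out 1 library gave, for 4T1 in vivo over in vitro, 6034 to 7378 genes called, 0 to 1 sterol members higher, 18 to 19 lower, and 0 to 0 fatty acid members higher, 13 to 13 lower. For niche over distal it gave 8502 to 9044 genes, 0 to 2 and 13 to 16 sterol, and 2 to 2 and 13 to 14 fatty acid members. For shSox9 over niche it gave 2238 (without niche replicate 1) to 4224 genes, 0 to 4 and 0 to 1 sterol, and 8 to 10 and 0 to 0 fatty acid members. For shSox9 over distal it gave 6581 to 7715 genes, 0 to 0 and 8 to 11 sterol, and 2 to 2 and 13 to 13 fatty acid members. For 4T1 in vitro over distal it gave 13667 to 14109 genes, 16 to 18 and 0 to 0 sterol, and 5 to 6 and 10 to 10 fatty acid members.

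Same-numbered libraries of shSox9 and niche deviated together only weakly (r = 0.129, 0.091 and 0.102), each correlating best with its own number. The titles of both groups carry the letters A, B and C, but do not say whether equal letters share a preparation. With the replicate block 3987 genes, 6 sterol members higher and 1 lower, and 11 fatty acid members higher were called in shSox9 over niche. The block called 7487 genes in 4T1 in vivo over in vitro, 9269 in niche over distal, 6503 in shSox9 over distal and 13696 in 4T1 in vitro over distal. Distal replicate 1 is titled R1, not with a letter, and its place in the block was assumed. No title ties cultures to mice or lungs, and each block fit used only the 6 libraries compared. Of the calls of single members over all alternatives, 412 of 429 were kept in 4T1 in vivo over in vitro, 442 of 480 in niche over distal, 201 of 240 in shSox9 over niche, 352 of 405 in shSox9 over distal and 382 of 396 in 4T1 in vitro over distal. The causes of these changes were not tested.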
